A study of Mus musculus with 2 samples.

Results

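The 51 genes described here encode parts of the sarcomere and its Z-disc. They were taken from the 32285 genes of the count matrices by their symbols, as a list of thin, thick and elastic filament, M-band and Z-disc genes without the myosin heavy chains. No measured value was a criterion, though earlier results of these data were known when the list was chosen. The list holds 16 thin filament genes, 7 thick filament genes, 4 genes of titin and the M-band, 18 Z-disc genes, 3 ankyrin repeat genes and 3 assembly and turnover factors. All 51 symbols were found in both matrices.

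The sarcomere is the contractile unit of striated muscle, in which myosin thick filaments pull actin thin filaments towards the M-band at its centre. The thin filaments are anchored at the Z-discs by alpha-actinin, titin spans from the Z-disc to the M-band, and calcium acts through the troponins and tropomyosin on the thin filament. Many of these proteins come in fast and slow isoforms from separate genes, and the fibres of a muscle are typed by their main myosin heavy chain, which is *Myh4* in type IIb, *Myh1* in type IIx, *Myh2* in type IIa and *Myh7* in type I fibres. The tibialis anterior (TA) is a fast muscle of the lower leg.

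Nuclei of TA muscle were profiled by single-nucleus RNA sequencing, which counts RNA molecules per gene and nucleus by unique molecular identifiers (UMIs). The M-*Bcl6* KO mice carried *Myf6*-Cre, which acts in muscle fibres, and loxP-flanked *Bcl6* alleles (*Myf6*-Cre+ *Bcl6* fl/fl), and the M-*Bcl6* WT mice were *Myf6*-Cre+ *Bcl6* wt/wt littermates, so that both groups carried the Cre transgene. The mice were males on a C57BL/6 background, 6 weeks old, and the right and left TA muscles of 2 mice per genotype were pooled into 1 library. Nuclei were sorted on the DNA dye 7-AAD, which does not select muscle nuclei. Each genotype was thus 1 library, nothing checks a difference between the genotypes against the spread among mice, and no test was run. All 95% intervals given here cover counting error alone.

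The WT-labelled library held 3798 barcodes with 11974138 UMIs (median 2595 per barcode), and the KO-labelled library held 4096 barcodes with 12026013 UMIs (median 2494). They shared 6 barcode sequences. *Bcl6* itself went against the labels. It had 1474 UMIs or 167 counts per 1000000 UMIs (CPM) in myonuclei of the WT-labelled library and 4833 UMIs or 502 CPM in those of the KO-labelled library, a log2 ratio of 1.59 (95% interval 1.503 to 1.67). Gene sums do not show whether the counted RNA lies within the deleted exons, so this does not check the labels, and the libraries are called by their labels throughout. The paper reports more *Meg3* RNA in M-*Bcl6* KO muscle, also by quantitative PCR. In myonuclei *Meg3* was at 386 CPM in the WT-labelled and 20939.7 CPM in the KO-labelled library.

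Myonuclei, the nuclei of the muscle fibres, were taken as clusters rich in 10 marker genes that are not among the 51, such as *Ckm*, *Ryr1* and *Dmd*, and the 51 genes and the myosin heavy chains were left out of the clustering. All 10 markers were detected, and together they held 38566 CPM in myonuclei of the WT-labelled library and 38755 CPM in those of the KO-labelled library. There were 2407 myonuclei with 8829805 UMIs in the WT-labelled library, 65.5% of its nuclei (95% interval 64.0 to 67.1%), and 3088 with 9632179 UMIs in the KO-labelled library, 78.3% (77.0 to 79.6%). Markers of other cell types were a small part of the RNA in these nuclei. The 8 markers of fibro-adipogenic progenitors (FAPs) summed to 40.3 and 33.7 CPM with *Gsn* the most abundant, the 7 endothelial markers summed to 45.8 and 47.7 CPM with *Mecom* the most abundant, and each of these markers was above 0 in both libraries. The 6 satellite cell markers were at 46.8 and 72.7 CPM and the 8 pericyte or smooth muscle markers at 298 and 255 CPM, of which *Abcc9* made up 282 and 238. The 6 macrophage markers were at 27.7 and 84.0 CPM, with *Mrc1* the most abundant in the WT-labelled library and *Mertk* in the KO-labelled library. Their part in the results was not tested.

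Each myonucleus was assigned to the myosin heavy chain with most UMIs. The *Myh4* class held 701 nuclei of the WT-labelled library and 612 of the KO-labelled library, the *Myh1* class 1156 and 1175, the *Myh2* class 236 and 482 and the *Myh7* class 2 and 19, while 312 and 800 had no such UMI or a tie. The *Myh4* class rested on a median of 7 myosin heavy chain UMIs per nucleus in the WT-labelled library and 4 in the KO-labelled library, and 13.8% and 24.7% of its nuclei had a single one. In the *Myh1* class the medians were 18 and 10 UMIs, with 4.41% and 13.9% of nuclei on a single one. In the *Myh2* class they were 14 and 11 UMIs, with 3.39% and 8.71%. The log2 ratio of the KO-labelled over the WT-labelled library in all myonuclei was -0.74 for *Myh4*, -0.68 for *Myh1* and 0.52 for *Myh2*. A stricter assignment, with at least 3 myosin heavy chain UMIs and at least 80% of them from 1 gene, left 513 and 358 nuclei in the *Myh4* class, 993 and 841 in the *Myh1* class and 169 and 341 in the *Myh2* class. Values from it are named as those of the stricter classes.

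The 51 genes took up 8.59% of all UMIs of myonuclei in the WT-labelled library and 10.6% in the KO-labelled library. Titin (*Ttn*), the largest protein of the sarcomere, accounted for most of this, at 4.37% and 5.96%, and nebulin (*Neb*), which runs along the thin filament, for 1.17% and 1.28%. Without these 2 genes the share was 3.05% and 3.41%. The share was higher in the KO-labelled library within each of the *Myh4* class (8.07 and 10.1%), the *Myh1* class (8.75 and 11.0%) and the *Myh2* class (9.96 and 11.4%). When each nucleus was thinned to 1000 UMIs, the median myonucleus held 81 UMIs of these genes in the WT-labelled library and 98 in the KO-labelled library, over the 2380 and 3012 nuclei deep enough.

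Between *Myh4* and *Myh2* nuclei, members of the myosin-binding protein C, alpha-actinin, calsarcin and myomesin families and *Csrp3* and *Ankrd2* differed, in the same direction in both libraries. A gene was counted as different when its CPM differed by 1.5-fold or more and it had at least 100 UMIs in the 2 classes together. Of the 38 genes that passed this minimum in both libraries, 6 were higher in *Myh4* nuclei in both (*Tnnt3*, *Tnni2*, *Mybpc2*, *Myom2*, *Actn3* and *Myoz1*), against 10.6% of all genes that passed, and 12 were higher in *Myh2* nuclei in both (*Neb*, *Tpm2*, *Lmod2*, *Myl1*, *Mybpc1*, *Myom3*, *Actn2*, *Myoz2*, *Csrp3*, *Flnc*, *Ankrd2* and *Klhl41*), against 12.1%. The other 13 genes had too few UMIs in at least 1 library. The plot of the *Myh4* over *Myh2* ratios in both libraries shows these genes at its 2 ends.

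**Figure D1:**
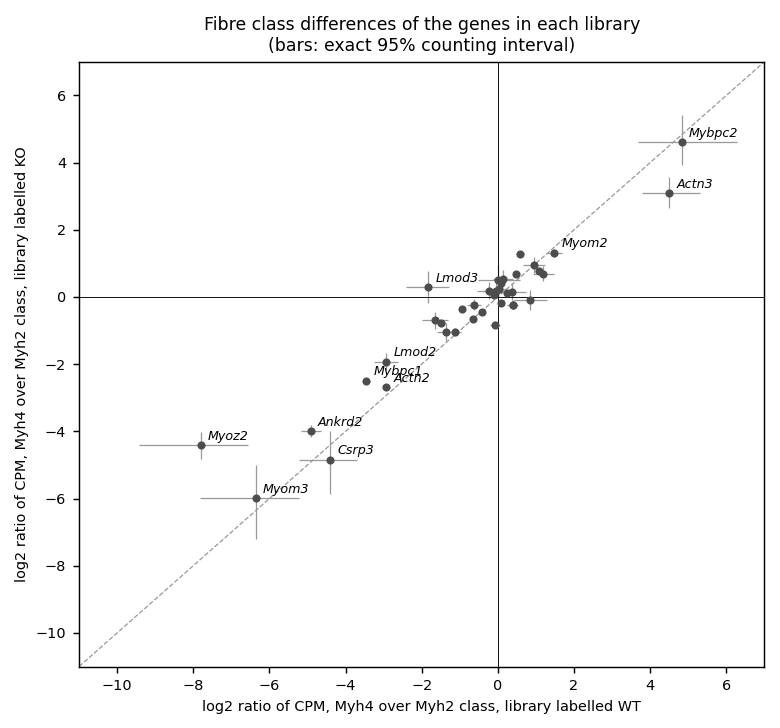
Each point is 1 of the 38 genes with at least 100 UMIs in both libraries, with the log2 ratio of CPM in *Myh4* over *Myh2* nuclei of the WT-labelled library on the x axis and of the KO-labelled library on the y axis; bars are exact 95% counting intervals and the dashed line marks equal ratios. *Mybpc2* and *Actn3* lie at the top right, *Myoz2*, *Myom3*, *Csrp3* and *Ankrd2* at the bottom left, and *Myoz2* lies well above the dashed line (-7.80 in the WT-labelled library and -4.41 in the KO-labelled library).

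*Mybpc2* and *Mybpc1* encode the fast and slow forms of myosin-binding protein C, which decorates the thick filament. *Mybpc2* was at 192 CPM in *Myh4*, 14.3 in *Myh1* and 6.77 in *Myh2* nuclei of the WT-labelled library, and at 249, 18.2 and 10.2 CPM in the KO-labelled library. Its log2 ratio of *Myh4* over *Myh2* nuclei was 4.82 (3.69 to 6.28) and 4.61 (3.91 to 5.40), and that of *Myh4* over *Myh1* nuclei was 3.75 and 3.77. *Mybpc1* ran the other way, at 621, 4935 and 6785 CPM in the WT-labelled library and at 948, 3043 and 5332 CPM in the KO-labelled library, with log2 ratios of -3.45 (-3.53 to -3.37) and -2.49 (-2.57 to -2.42). The slow form was thus high in the fast *Myh2* and *Myh1* nuclei and low in *Myh4* nuclei.

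The M-band genes *Myom2* and *Myom3*, whose products crosslink the thick filaments, also differed between the classes. *Myom2* was at 693 CPM in *Myh4*, 910 in *Myh1* and 247 in *Myh2* nuclei of the WT-labelled library and at 1295, 1623 and 519 CPM in the KO-labelled library. It was therefore lowest in *Myh2* nuclei, with a log2 ratio of *Myh4* over *Myh2* of 1.49 (1.28 to 1.70) and 1.32 (1.20 to 1.43). *Myom3* was at 2.40, 37.2 and 197 CPM in the WT-labelled library and at 4.62, 43.0 and 295 CPM in the KO-labelled library. It marked *Myh2* nuclei, with ratios of -6.36 (-7.83 to -5.21) and -5.996 (-7.22 to -5.01), on 6 and 8 UMIs in *Myh4* nuclei. *Myom1*, the third gene of the family, differed little between the classes, with ratios of 0.09 and -0.19.

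In the Z-disc, *Actn3* and *Actn2* encode the fast-fibre and the general alpha-actinin that crosslink actin. *Actn3* was at 407 CPM in *Myh4*, 54.4 in *Myh1* and 18.1 in *Myh2* nuclei of the WT-labelled library and at 234, 41.8 and 27.5 CPM in the KO-labelled library. The classes kept their order while the log2 ratio of *Myh4* over *Myh2* went from 4.49 (3.79 to 5.31) to 3.09 (2.65 to 3.56). *Actn2* was at 457, 2640 and 3504 CPM in the WT-labelled library and at 597, 3020 and 3822 CPM in the KO-labelled library, with ratios of -2.94 (-3.04 to -2.84) and -2.68 (-2.77 to -2.58).

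*Myoz1* and *Myoz2* encode the fast and slow calsarcins, Z-disc proteins that bind calcineurin. *Myoz1* was at 276, 175 and 143 CPM in *Myh4*, *Myh1* and *Myh2* nuclei of the WT-labelled library and at 257, 174 and 134 CPM in the KO-labelled library, so that its log2 ratio of *Myh4* over *Myh2* was 0.94 in both. *Myoz2* was at 2.00, 94.7 and 446 CPM in the WT-labelled library and at 32.4, 225 and 687 CPM in the KO-labelled library. Its level rose from *Myh4* to *Myh1* to *Myh2* nuclei in both libraries, and the log2 ratio of *Myh4* over *Myh2* was -7.80 (-9.43 to -6.56) on 5 UMIs in *Myh4* nuclei of the WT-labelled library and -4.41 (-4.82 to -4.02) on 56 UMIs in those of the KO-labelled library. Under the stricter classes the same ratios were -7.62 (-9.26 to -6.39) and -7.34 (-8.96 to -6.11), on 5 UMIs in *Myh4* nuclei of each library.

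Among the remaining genes that marked *Myh2* nuclei, *Csrp3* (a LIM protein of the Z-disc) was at 7.20 CPM in *Myh4* and 153 in *Myh2* nuclei of the WT-labelled library and at 6.36 and 183 CPM in the KO-labelled library. *Ankrd2*, an ankyrin repeat protein that binds titin, was at 52.4 and 1575 CPM in the WT-labelled library and at 150 and 2386 CPM in the KO-labelled library. The log2 ratio of *Myh4* over *Myh2* was -4.41 (-5.21 to -3.70) and -4.85 (-5.87 to -3.99) for *Csrp3* and -4.91 (-5.18 to -4.65) and -3.99 (-4.18 to -3.81) for *Ankrd2*. *Lmod2*, a leiomodin that nucleates actin, followed at -2.93 and -1.93. On the *Myh4* side, the fast troponins *Tnni2* (1.19 and 0.70) and *Tnnt3* (1.08 and 0.76) had smaller ratios, and *Tpm1*, the alpha-tropomyosin, was at 0.58 and 1.28, below 1.5-fold in the WT-labelled library. *Ttn*, by contrast, stood at -0.09 and 0.06, close to the same level in both classes.

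Under the stricter classes most of these genes had ratios farther from 0. They were 7.04 (4.55 to 12.3) and 5.86 (4.72 to 7.31) for *Mybpc2*, on 1 and 6 UMIs in *Myh2* nuclei, 5.05 and 4.00 for *Actn3*, -7.67 and -6.42 for *Myom3*, -6.71 and -5.07 for *Csrp3*, -3.58 and -2.78 for *Mybpc1* and 1.76 and 1.42 for *Myom2*. In *Myh4* nuclei *Myom3* rested on only 2 and 4 UMIs and *Csrp3* on 3 and 6. For *Ankrd2* the ratios were -5.65 and -7.14 and for *Actn2* -2.97 and -3.92, so that the ratio of these 2 genes was the farther from 0 in the KO-labelled library there and the nearer with all nuclei. *Tnni2* was at 1.24 and 0.45, below 1.5-fold in the KO-labelled library.

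The summed level of the 9 fast isoforms was 5671, 3446 and 3812 CPM in *Myh4*, *Myh1* and *Myh2* nuclei of the WT-labelled library and 5161, 3084 and 3167 CPM in the KO-labelled library. That of the 9 slow isoforms was 1099, 7692 and 10758 CPM and 1604, 6304 and 9873 CPM. A few genes carried these sums. *Mybpc1* and *Actn2* made up 6785 and 3504 of the 10758 CPM of slow isoforms in *Myh2* nuclei of the WT-labelled library and 5332 and 3822 of the 9873 CPM in those of the KO-labelled library. Among the fast isoforms, *Myl1* ran against the sum, with log2 ratios of *Myh4* over *Myh2* nuclei of -1.501 (-1.63 to -1.37) and -0.78 (-0.90 to -0.66). The ratio of *Myh4* over *Myh2* nuclei was closer to 0 in the KO-labelled library for 26 of the 38 genes, 68.4%, beside 51.5% of all genes. Under the stricter classes it was so for 20 of 37, 54.1%, beside 46.7%.

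**Figure D2:**
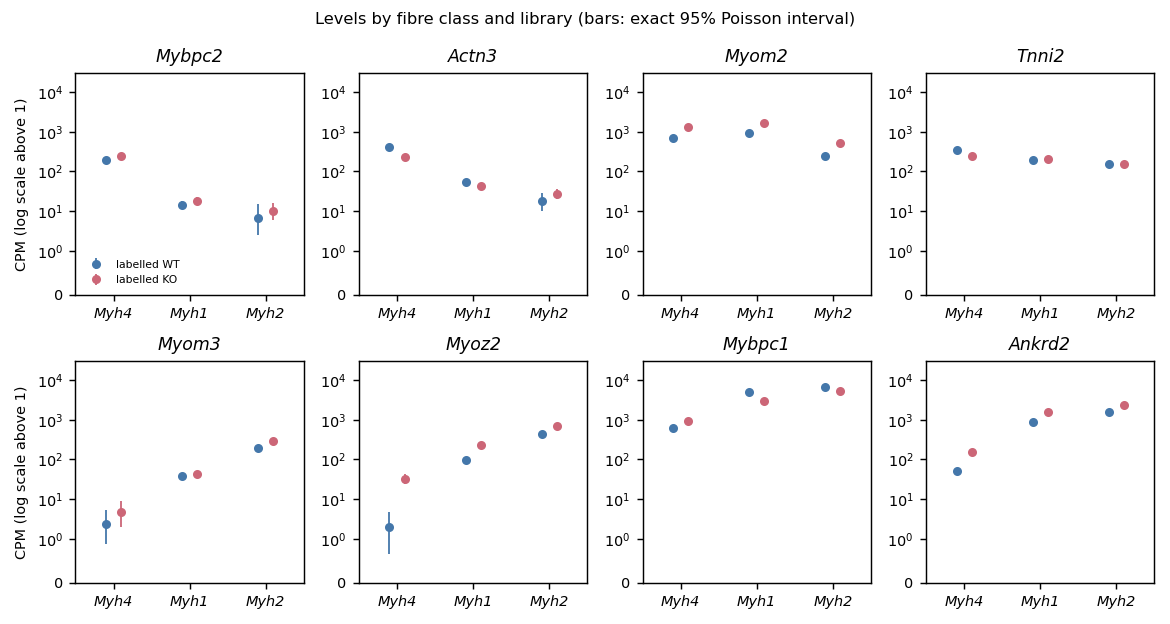
Level in CPM (log scale above 1) of 8 genes in *Myh4*, *Myh1* and *Myh2* nuclei, with blue points for the WT-labelled library, red points for the KO-labelled library and bars for exact 95% Poisson intervals. *Mybpc2* and *Actn3* fall from left to right and *Myom3*, *Myoz2*, *Mybpc1* and *Ankrd2* rise, in both libraries.

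The sequences upstream of 4 genes are shown. *Mybpc2* had the highest ratio of *Myh4* over *Myh2* nuclei of the 38 genes in both libraries, *Myoz2* and *Myom3* had the 2 lowest in the WT-labelled library, and *Mybph* had the highest ratio between the libraries, described further on. Shown are the 250 bases before the start on the gene's own strand, from RefSeq on GRCm38.p6. Capitals mark E-boxes (CANNTG, the site of MyoD family factors), MCAT elements (CATTCC on either strand) and MEF2 sites by the usual 10-base consensus. The regions are chr7:44524670-44524919 (minus strand) for *Mybpc2*, chr4:135759465-135759714 (plus strand) for *Myom3*, chr3:123034988-123035237 (minus strand) for *Myoz2* and chr1:134193198-134193447 (plus strand) for *Mybph*, a relative of myosin-binding protein C.
Mybpc2: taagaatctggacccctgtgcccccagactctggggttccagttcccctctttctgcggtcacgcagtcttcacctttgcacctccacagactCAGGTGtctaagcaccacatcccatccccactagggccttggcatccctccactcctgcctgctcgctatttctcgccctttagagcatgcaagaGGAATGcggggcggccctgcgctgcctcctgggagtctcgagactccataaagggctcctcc
Myom3: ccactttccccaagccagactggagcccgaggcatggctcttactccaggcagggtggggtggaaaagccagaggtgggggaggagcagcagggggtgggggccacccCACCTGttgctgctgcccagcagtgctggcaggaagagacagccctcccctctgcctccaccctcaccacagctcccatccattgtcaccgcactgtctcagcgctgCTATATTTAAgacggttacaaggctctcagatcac
Myoz2: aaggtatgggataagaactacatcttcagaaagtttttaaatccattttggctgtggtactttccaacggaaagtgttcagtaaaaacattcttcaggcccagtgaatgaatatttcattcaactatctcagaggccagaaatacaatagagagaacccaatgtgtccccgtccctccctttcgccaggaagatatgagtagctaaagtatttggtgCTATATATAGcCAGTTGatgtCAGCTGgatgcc
Mybph: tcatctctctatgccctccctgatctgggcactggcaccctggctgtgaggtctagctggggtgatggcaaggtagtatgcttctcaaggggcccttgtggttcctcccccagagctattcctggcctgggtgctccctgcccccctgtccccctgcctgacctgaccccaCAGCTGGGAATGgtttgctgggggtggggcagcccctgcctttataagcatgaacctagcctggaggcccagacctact
*Mybpc2* held 1 E-box and 1 MCAT element, *Mybph* an E-box directly followed by an MCAT element, and *Myom3* and *Myoz2* each held a MEF2 consensus together with 1 and 2 E-boxes. The MEF2 matches began 35 bases before the start of *Myom3* and 33 bases before that of *Myoz2* and both contain the letters TATA. Promoters were found for 40 of the 51 genes, with 48 start sites. An E-box was present in 81.2% of these 48 and in 66.2% of all 32841 promoters in the table, an MCAT element in 12 of them and in 12.6% of all, a MEF2 consensus in 5 of them and in 2.92%, and the CArG box of serum response factor in 6 of them and in 1.47%. The letters TTCNNNGAA, to which STAT5 binds, were found at 1 of the 48 start sites and in 7.02% of all promoters. A match describes these letters only and says nothing of binding.

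The 9 fast and 9 slow isoforms were next set side by side as pairs, by the share of the slow gene among the UMIs of both. In 6 pairs the slow gene was almost absent from *Myh4*, *Myh1* and *Myh2* nuclei. *Tnnt1*, *Tnni1*, *Tnnc1* and *Myl2*, the slow troponins and regulatory light chain, had 0 to 6 UMIs in any of these classes and library, a share of at most 2.09% of their pair. *Myl3* reached 1.11% and *Tpm3* 2.13% at most. The shares of the other 3 slow genes, *Mybpc1*, *Actn2* and *Myoz2*, differed between the classes and are shown by class and library.

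**Figure D3:**
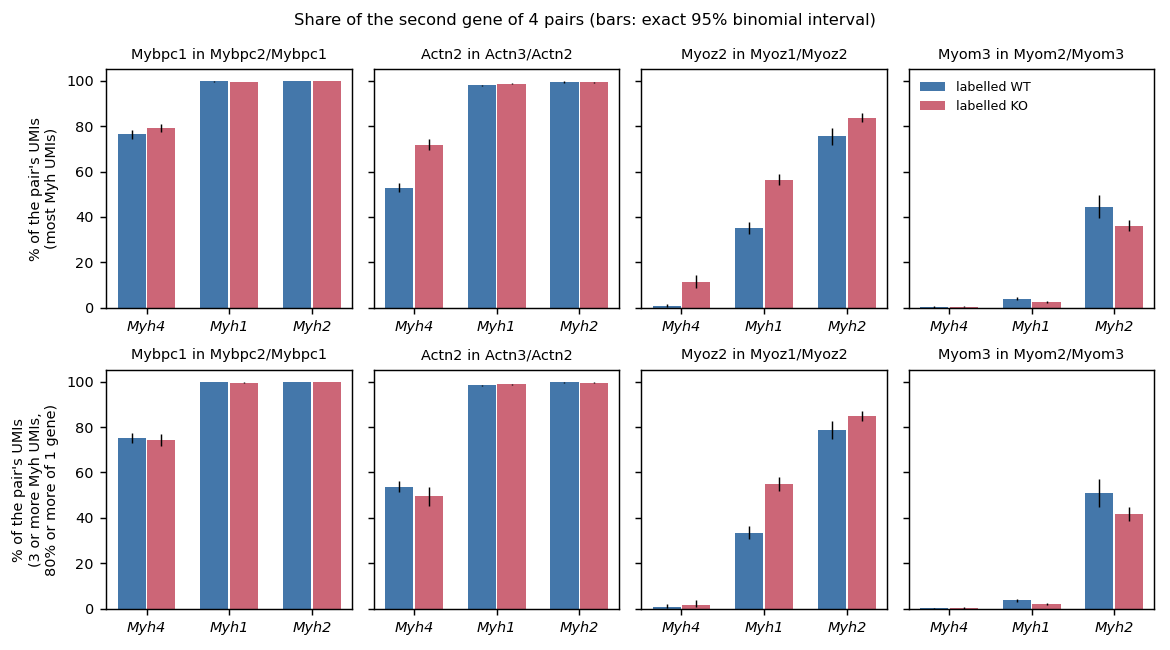
Share of the second gene among the UMIs of a pair (y axis, %) in *Myh4*, *Myh1* and *Myh2* nuclei, for the 3 pairs with an abundant slow gene and for *Myom2* and *Myom3*, with blue bars for the WT-labelled library, red bars for the KO-labelled library and exact 95% binomial intervals. The upper row uses the myosin heavy chain with most UMIs and the lower row the stricter classes. There the share of *Actn2* in *Myh4* nuclei is not higher in the KO-labelled library. That of *Myoz2* is 0.917% and 1.72% in *Myh4* nuclei with overlapping intervals, and its higher share in *Myh1* nuclei remains.

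The share of *Myoz2* in the calsarcin pair was higher in the KO-labelled library in every class. It was 0.720% (0.234 to 1.67%) and 11.2% (8.55 to 14.3%) in *Myh4* nuclei, 35.1% (32.4 to 37.8%) and 56.4% (53.9 to 58.9%) in *Myh1* nuclei and 75.7% (71.8 to 79.3%) and 83.7% (81.6 to 85.6%) in *Myh2* nuclei. Under the stricter classes it was 0.917% (0.299 to 2.13%) and 1.72% (0.560 to 3.96%) in *Myh4* nuclei, 33.3% (30.5 to 36.3%) and 55.0% (52.0 to 58.0%) in *Myh1* nuclei and 78.8% (74.6 to 82.6%) and 85.1% (82.8 to 87.2%) in *Myh2* nuclei. The difference in *Myh1* nuclei was thus as large under both assignments, and that in *Myh4* nuclei was not.

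The share of *Actn2* in the alpha-actinin pair behaved likewise in *Myh4* nuclei, at 52.9% (50.8 to 55.1%) and 71.8% (69.4 to 74.1%), and at 53.8% (51.3 to 56.2%) and 49.5% (45.3 to 53.7%) under the stricter classes. It was above 97% in *Myh1* and *Myh2* nuclei of both libraries. The share of *Mybpc1* in *Myh4* nuclei was 76.4% (74.5 to 78.2%) and 79.2% (77.4 to 81.0%), and 75.2% and 74.3% under the stricter classes. *Myom3*, set against *Myom2*, took 44.4% (39.4 to 49.5%) and 36.2% (33.7 to 38.8%) in *Myh2* nuclei and under 4% in *Myh4* and *Myh1* nuclei.

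In the KO-labelled library, most UMIs of the slow isoforms that were almost absent from the fast classes came from *Myh7* nuclei. That library had 19 such nuclei and the WT-labelled library 2, 1 of these 2 on a single myosin heavy chain UMI. In the KO-labelled library, these 19 nuclei held 64 of the 65 *Tnni1* UMIs of all myonuclei, 48 of 52 *Tnnc1*, 45 of 49 *Tnnt1*, 59 of 66 *Myl2* and 29 of 51 *Myl3* UMIs. The counts in all myonuclei of the WT-labelled library were 4, 5, 3, 2 and 15 UMIs, of which its *Myh7* nuclei held 2, 2, 1, 1 and 0. The 19 nuclei also held 241 of 418 UMIs of *Tpm3*, the slow tropomyosin, which had 169 UMIs in the WT-labelled library. Without the *Myh7* nuclei *Tpm3* had 165 and 177 UMIs, or 18.7 and 18.5 CPM, and its log2 ratio of the KO-labelled library over the WT-labelled library went from 1.18 (0.92 to 1.45) to -0.015 (-0.33 to 0.30). The higher level of *Tpm3* in the KO-labelled library therefore rested on 19 nuclei.

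Across all myonuclei, genes higher by 1.5-fold in the KO-labelled library included *Mybph*, *Mylpf*, *Myom2*, *Igfn1*, *Myoz2*, *Flnc* and *Ankrd2*, and the fast isoforms went in both directions. Of the 51 genes, 45 had at least 100 UMIs in the 2 libraries together. The other 6 were *Actc1*, *Myl2*, *Myl3*, *Tnnc1*, *Tnni1* and *Tnnt1*. Of the 45, 14 were higher by 1.5-fold or more in the KO-labelled library, against 7.59% of the 8759 genes that passed, and 2 were lower, against 11.2%. Their median log2 ratio was 0.32, beside -0.14 for all genes that passed, and 32 lay above 0 and 13 below. The median of all genes moved by 0.11 under TMM scaling and by 0.13 under median-of-ratios scaling, and under each of them *Tmod4*, *Myl1*, *Myoz1*, *Tcap* and *Des* turned from below to above 0 and 37 of the 45 lay above it. Under TMM scaling 17 genes were higher and 1 lower by 1.5-fold, against 9.78% and 7.54% of all genes. With the level outside myonuclei subtracted, as described further on, only *Tnnc2* and *Tmod1* of the 14 higher and 2 lower genes fell within 1.5-fold. The shares of all genes were then 15.2% higher and 21.2% lower, in place of 7.59% and 11.2%.

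**Figure D4:**
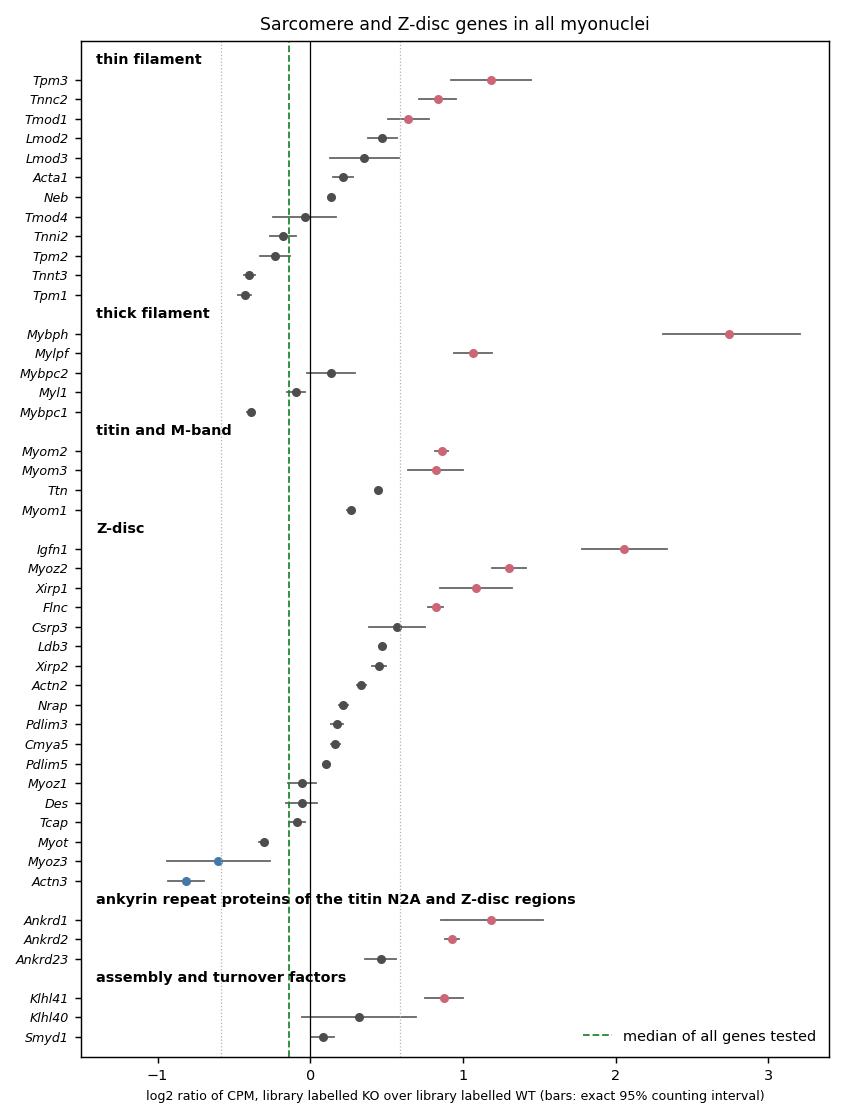
Log2 ratio of CPM in all myonuclei, KO-labelled over WT-labelled library (x axis), for the 45 genes with at least 100 UMIs, ordered by group, with exact 95% counting intervals; red and blue points are past 1.5-fold (dotted lines) and the dashed green line is the median of all genes (-0.14). The 4 genes of titin and the M-band and the 3 ankyrin repeat genes all lie above 0, and *Mybph* and *Igfn1* lie farthest to the right.

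In the thick filament, *Mybph* had 49 UMIs or 5.55 CPM in the WT-labelled library and 358 UMIs or 37.2 CPM in the KO-labelled library. It was the highest of the 45, with a log2 ratio of 2.74 (2.31 to 3.21), and it was higher in *Myh4* nuclei (11.2 and 68.8 CPM), in *Myh1* nuclei (3.56 and 35.8 CPM) and in *Myh2* nuclei (1.13 and 19.2 CPM, on 1 and 32 UMIs). After thinning to 1000 UMIs it was detected in 0.588% (0.322 to 0.985%) of 2380 and 3.29% (2.68 to 3.99%) of 3012 myonuclei, or 1.54% and 7.74% before thinning at median depths of 3127 and 2707 UMIs. FAP-like nuclei of the 2 libraries held 2 and 1 of its UMIs (1.82 and 1.40 CPM), in 0.413% of 484 and 0.301% of 332 nuclei at median depths of 1958 and 1758.5 UMIs. *Mylpf*, the fast regulatory light chain, was at 87.2 and 183 CPM, a log2 ratio of 1.07 (0.94 to 1.19). *Mybpc2* (68.6 and 75.5 CPM) and *Myl1*, the fast essential light chain (559 and 524 CPM), differed by less, with ratios of 0.14 (-0.02 to 0.30; -0.24 without cluster 5, described further on) and -0.09 (-0.15 to -0.04). *Mybpc1* was at 3534 and 2697 CPM, a ratio of -0.39 (-0.41 to -0.37), less than 1.5-fold.

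In the M-band and titin group, each of the 4 genes was higher in the KO-labelled library, beside a median log2 ratio of -0.14 for all genes. Of the 4, 2 were higher by 1.5-fold or more, against 7.59% of all genes. *Ttn* was at 43699.8 and 59559.5 CPM (log2 ratio 0.45, 0.44 to 0.45), *Myom1* at 2982 and 3581 CPM (0.26, 0.24 to 0.29), *Myom2* at 738 and 1339 CPM (0.86, 0.82 to 0.90) and *Myom3* at 43.0 and 76.0 CPM (0.82, 0.64 to 1.00, but 0.53 and within 1.5-fold with the *Myh4*, *Myh1* and *Myh2* classes weighted equally). Of these *Ttn*, *Myom1* and *Myom2* were also higher within each of the *Myh4*, *Myh1* and *Myh2* classes, though *Myom1* in *Myh4* nuclei by 0.06 only, and by -0.004 (-0.07 to 0.06) under the stricter classes.

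In the Z-disc, 4 of 18 genes were higher by 1.5-fold or more, against 7.59% of all genes, and 2 were lower, against 11.2%, which is near that share. *Igfn1* (chr1:135953578-136006342, minus strand, GRCm38), which encodes an immunoglobulin-like protein of the Z-disc, had 131 UMIs or 14.8 CPM in the WT-labelled library and 594 UMIs or 61.7 CPM in the KO-labelled library, a log2 ratio of 2.06 (1.78 to 2.34). It was high mainly in *Myh4* nuclei, at 34.4 and 175 CPM, and it had 0 UMIs in the FAP-like, endothelial-like and macrophage-like nuclei of either library, which allows up to 1.798 and 2.73 CPM there. *Myoz2* was at 99.0 and 244 CPM, a ratio of 1.30 (1.19 to 1.41). Since the *Myh2* class was larger in the KO-labelled library, the 3 classes were also weighted equally, which gave 0.80 for *Myoz2*. This weighting, which also left out the *Myh7* and unassigned nuclei, took *Myom3* to 0.53, *Tmod1* to 0.57, *Myoz3* to -0.48 and *Tpm3* to 0.07, all within 1.5-fold. *Xirp1*, an actin-binding Xin repeat protein, was at 24.5 and 51.8 CPM (1.08, 0.85 to 1.32), and *Flnc*, the muscle filamin, at 561 and 991 CPM (0.82, 0.77 to 0.87). *Xirp1* overlaps *Cx3cr1* on the same strand in the annotation, so reads could be shared between them.

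*Actn3* (chr19:4861216-4877909, minus strand, GRCm38) was at 177 and 101 CPM, a log2 ratio of -0.82 (-0.93 to -0.70), and of -0.66 with the classes weighted equally. Its level was lower in *Myh4* nuclei (-0.80) and *Myh1* nuclei (-0.38), and its 16 and 46 UMIs in *Myh2* nuclei gave 18.1 and 27.5 CPM. *Myoz3*, the third calsarcin, was at 20.2 and 13.3 CPM (-0.60, -0.94 to -0.27), which is just past 1.5-fold on 178 and 128 UMIs and within it under TMM scaling (-0.49). *Myot*, the myotilin gene, was at 1983 and 1605 CPM (-0.31, -0.34 to -0.27). The structural genes *Des* (desmin), *Tcap* (telethonin) and *Myoz1* stood at -0.06, -0.09 and -0.05. Among the other Z-disc genes, *Ldb3*, which encodes the alpha-actinin partner ZASP, was at 2559 and 3549 CPM (0.47), *Xirp2* at 732 and 1001 CPM (0.45), *Csrp3* at 45.6 and 67.7 CPM (0.57), and *Actn2* (0.34), *Nrap* (0.22), *Pdlim3* (0.17), *Cmya5* (0.16) and *Pdlim5* (0.11) differed by less.

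In the thin filament, the counts of the 3 fast troponin genes differed in direction, but not once the level outside myonuclei was subtracted, which took *Tnnc2* from 0.83 to -0.054. That subtraction has limits, which are given further on. *Tnnc2*, the fast troponin C, was at 93.6 and 167 CPM (log2 ratio 0.83, 0.71 to 0.96), while *Tnnt3*, the fast troponin T, was at 1548 and 1174 CPM (-0.40, -0.43 to -0.36) and *Tnni2*, the fast troponin I, at 255 and 226 CPM (-0.18, -0.26 to -0.09). After thinning to 1000 UMIs *Tnnc2* was at 0.56, within 1.5-fold. *Tmod1*, a tropomodulin that caps the thin filament, was at 81.0 and 126 CPM (0.64, 0.51 to 0.78). It was within 1.5-fold after thinning to 1000 UMIs (0.49), as a mean over nuclei (0.55), with the classes weighted equally (0.57) and with the level outside myonuclei subtracted (0.495). *Tpm1* was at 1222 and 907 CPM (-0.43, -0.47 to -0.39), but at 1774 and 1808 CPM in *Myh4* nuclei. *Neb* (0.13) and *Acta1*, the skeletal actin (0.22), differed by less than 1.5-fold, and *Acta1* turned to -0.48 with the level outside myonuclei subtracted. Of the 9 fast isoforms, 2 were higher by 1.5-fold (*Tnnc2*, with the exceptions just given, and *Mylpf*), against 7.59% of all genes, and 1 was lower (*Actn3*), against 11.2%, which is near that share. Their median was -0.09, which either scaling above would bring past 0. *Tpm2* and *Tmod4* stood at -0.23 and -0.04, *Lmod2* and *Lmod3* at 0.47 and 0.35, and *Actc1*, the cardiac actin, had 32 and 7 UMIs.

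Of the ankyrin repeat genes, *Ankrd2* was at 648 and 1234 CPM (log2 ratio 0.93, 0.88 to 0.97), *Ankrd23* at 145 and 200 CPM (0.46, 0.36 to 0.56) and *Ankrd1* at 12.2 and 27.8 CPM (1.19, 0.86 to 1.52). Of the assembly and turnover factors, *Klhl41*, a Kelch protein that stabilises nebulin, was at 89.5 and 164 CPM (0.87, 0.75 to 1.00), and *Klhl40* and the methyltransferase gene *Smyd1* stood at 0.32 (-0.06 to 0.69) and 0.08 (0.01 to 0.16).

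Within the classes, 11 of 37 genes that passed the minimum were higher by 1.5-fold in *Myh4* nuclei of the KO-labelled library (background 6.30%), 13 of 43 in *Myh1* nuclei (7.75%) and 7 of 37 in *Myh2* nuclei (7.13%), and 1, 1 and 2 were lower (12.0%, 12.5% and 10.6%). The genes lower by 1.5-fold were *Actn3* in *Myh4* nuclei, *Mybpc1* in *Myh1* nuclei (4935 and 3043 CPM) and *Tpm1* and *Lmod3* in *Myh2* nuclei. By the stricter assignment 9 of 35 were higher in *Myh4* nuclei (background 5.83%), 11 of 41 in *Myh1* nuclei (7.34%) and 6 of 35 in *Myh2* nuclei (8.16%), and 4, 1 and 2 were lower (13.7%, 12.2% and 11.4%). The 4 lower in *Myh4* nuclei were then *Actn2* (-0.84), *Tnni2* (-0.68), *Tcap* (-0.67) and *Actn3* (-0.60), the 1 in *Myh1* nuclei was *Mybpc1* and the 2 in *Myh2* nuclei were *Tpm1* and *Tpm2*. The counts over all 3 classes that follow took a difference of any size, not of 1.5-fold. Of the 33 genes that passed in all 3 classes, 16 were higher in each class (*Acta1*, *Neb*, *Tnnc2*, *Lmod2*, *Mylpf*, *Ttn*, *Myom1*, *Myom2*, *Actn2*, *Ldb3*, *Pdlim3*, *Flnc*, *Nrap*, *Cmya5*, *Ankrd2* and *Klhl41*), against 15.4% of all genes, and 4 were lower in each (*Tpm2*, *Tnnt3*, *Myoz1* and *Myot*), against 43.1%. In all 3 stricter classes 30 genes passed, of which 12 were higher and 4 lower in each, against 13% and 40.9% of all genes, and *Myom1* in *Myh4* nuclei (-0.004) and *Acta1* in *Myh2* nuclei (-0.008, -0.24 to 0.23) were no longer above 0. With the level outside myonuclei subtracted, as described further on, 14 were higher and 7 lower in each, against 11.4% and 21.4%. Under TMM scaling 20 were higher and 3 lower, against 24.9% and 27.5%, and under median-of-ratios scaling 21 and 3, against 26.1% and 25.9%. *Actn2* and *Ankrd2* were under the stricter classes lower in *Myh4* nuclei of the KO-labelled library, at 470 and 262 CPM for *Actn2* and 34.1 and 18.8 CPM for *Ankrd2*, against 457 and 597 CPM and 52.4 and 150 CPM with all *Myh4* nuclei. *Ankrd2* had only 66 and 20 UMIs there. The direction of these 2 genes in *Myh4* nuclei hence depended on how a nucleus was assigned.

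A single cluster stood apart by library. Cluster 5 held 14 myonuclei of the WT-labelled library and 402 of the KO-labelled library and was led by the imprinted Dlk1-Dio3 transcripts *Meg3*, *Rian* and *Mirg*, which made up 0.0501% and 2.73% of all myonuclear UMIs, with *Meg3* alone at 386 and 20939.7 CPM. It held 220 of the 594 *Igfn1* UMIs and 82 of the 358 *Mybph* UMIs of the KO-labelled library. Without this cluster, *Igfn1* was at 13.7 and 43.6 CPM (log2 ratio 1.67, 1.37 to 1.98) and *Mybph* at 5.58 and 32.2 CPM (2.53, 2.08 to 2.996). With it left out, 16 genes were higher by 1.5-fold, *Lmod2* (0.60) and *Csrp3* (0.71) among them, and 3 were lower, *Tpm1* (-0.66) among them, against 8.12% and 11.7% of all genes.

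Nuclei of the myotendinous junction lie where fibres join the tendon. The cluster with junction markers such as *Col22a1* (MTJ-like) held 25 nuclei of the WT-labelled library and 33 of the KO-labelled library. Against the other myonuclei, 9 of the 44 genes that passed the minimum in both libraries were higher by 1.5-fold in both (*Ankrd1*, *Csrp3*, *Flnc*, *Klhl41*, *Myom3*, *Pdlim3*, *Tmod1*, *Xirp1* and *Xirp2*), against 6.08% of all genes, and 6 were lower in both (*Lmod3*, *Myom1*, *Tcap*, *Tmod4*, *Tnni2* and *Tnnt3*), against 25.2%, so that the share lower was under that of all genes. *Lmod3* and *Tmod4* rested on 1 and 2 UMIs in the MTJ-like nuclei of each library, and their intervals included 0. The median log2 ratio of all genes was -0.45 in both libraries. *Ankrd1*, a cardiac ankyrin repeat protein induced by stretch, was at 613 CPM in MTJ-like and 4.70 in other myonuclei of the WT-labelled library and at 739 and 18.8 CPM in the KO-labelled library. The junction thus held 67 of its 108 UMIs and 89 of its 268 UMIs. Without the junction nuclei the log2 ratio of *Ankrd1* between the libraries was 2.00 (1.505 to 2.53) in place of 1.19.

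*Xirp2*, the second Xin repeat gene, was at 4915 CPM in MTJ-like and 679 in other myonuclei of the WT-labelled library and at 9564 and 893 CPM in the KO-labelled library, a log2 ratio of 2.86 (2.73 to 2.98) and 3.42 (3.33 to 3.51). *Pdlim3*, a PDZ-LIM protein that binds alpha-actinin, was at 3204 and 992 CPM and at 4010 and 1114 CPM. *Klhl41* (2.61 and 2.06) and *Csrp3* (2.46 and 2.51) had ratios of similar size in both libraries. *Ttn* was at -0.27 and -0.23, nearer to 0 than the median of all genes. In the cluster with markers of the neuromuscular junction (NMJ-like), which held 15 and 8 nuclei, *Ttn* was at -0.86 (-0.94 to -0.78) and -0.93 (-1.04 to -0.82), where the median of all genes was -0.13 and -0.85.

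RNA of these genes was also counted in nuclei that do not make sarcomeres, for some of them at a higher level in the KO-labelled library. FAP-like, endothelial-like and macrophage-like nuclei numbered 807 in the WT-labelled library and 520 in the KO-labelled library, with 1668679 and 1098554 UMIs. In them, the median gene of the 51 stood at 3.82% of its myonuclear CPM in the WT-labelled library and at 6.39% in the KO-labelled library, and 5 and 9 genes reached 20%. *Tpm3* stood above its myonuclear level in both libraries (120 and 107 CPM). It is a tropomyosin of many cell types, and *Pdlim5* (656 and 527 CPM there) is likewise a PDZ-LIM protein of many cell types.

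Several fast-fibre and thin filament genes stood high among the others. *Tnnc2* was at 29.96 and 106 CPM outside myonuclei, 32.0% and 63.3% of its myonuclear level, *Acta1* at 73.7 and 217 CPM (19.99% and 50.6%), *Mylpf* at 18.6 and 63.7 CPM (21.3% and 34.9%), *Tnni2* at 33.6 and 66.5 CPM (13.2% and 29.5%), *Tpm2* at 21.6 and 48.2 CPM (11.4% and 29.8%) and *Actn3* at 7.79 and 20.9 CPM (4.39% and 20.8%). *Tmod1*, at 10.8 and 27.3 CPM (13.3% and 21.6%), lay mostly in macrophage-like nuclei, which held 14 of its 18 and 18 of its 30 UMIs there, at 78.0 and 162 CPM. FAP-like nuclei held 4 and 10 of them. *Ttn*, by contrast, was at 2.27% and 3.05% of its myonuclear level and *Neb* at 2.05% and 2.93%. *Acta1*, *Tnnc2* and *Tnni2* span 2.60 to 2.98 kb of genome, *Mylpf* 5.41 kb and *Tmod1* 77.1 kb, while *Ttn* and *Neb* span 279 and 242 kb. The shortest gene, *Tcap*, with 1.14 kb, was at 5.95% and 9.04%. With the level outside subtracted, the log2 ratio between the libraries was -0.054 for *Tnnc2* in place of 0.83, -0.48 for *Acta1* in place of 0.22, 0.79 for *Mylpf* in place of 1.07, -0.48 for *Tnni2* in place of -0.18 and -1.09 for *Actn3* in place of -0.82. It was 3.06 for *Mybph* in place of 2.74, 2.06 for *Igfn1* as before, 1.26 for *Myoz2* in place of 1.30 and 1.09 for *Xirp1* in place of 1.08. The subtraction took off the whole CPM of the outside nuclei, with any RNA made there. These nuclei were shallower, at median depths of 1390.5 to 1958 UMIs in the WT-labelled library, against 3127 in myonuclei. In the KO-labelled library the medians were 1711.5 to 1758.5 UMIs, against 2707. Whether the subtraction takes too much was not tested. Whether free RNA fed the levels of *Tnnc2* and *Acta1* in myonuclei was not tested.

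**Figure D5:**
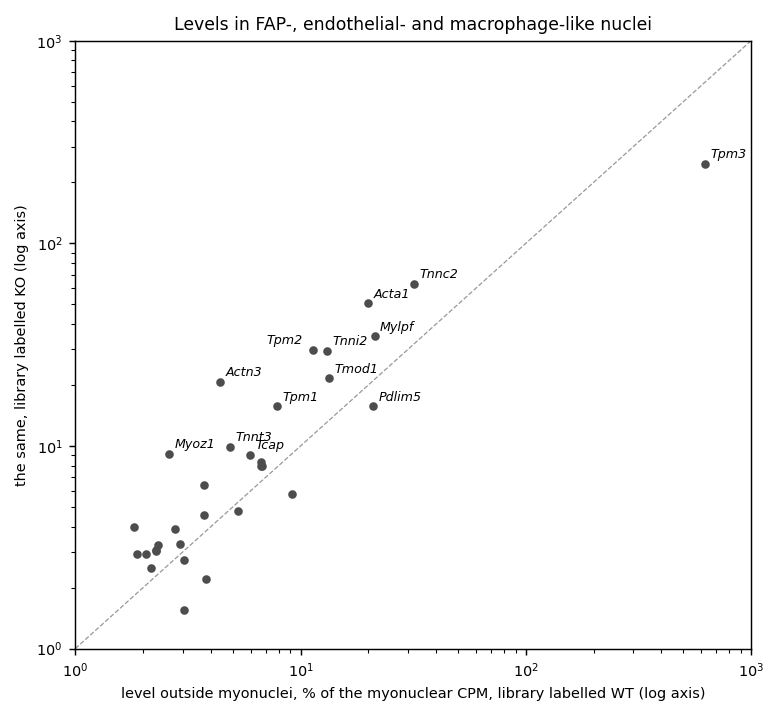
Level in FAP-like, endothelial-like and macrophage-like nuclei as a percentage of the myonuclear CPM, WT-labelled library (x axis) against KO-labelled library (y axis), both on log axes, for the 32 genes with at least 20 UMIs there and a level above 0 in both; the dashed line marks equal percentages. *Acta1*, *Tnnc2*, *Tnni2*, *Tpm2* and *Actn3* lie above the line, and *Tpm3* lies above 100% in both libraries.

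A further list held 42 genes that act at the sarcomere without being among the 51, such as chaperones, kinases and ubiquitin ligases. Of its 37 genes with at least 100 UMIs, 5 were higher by 1.5-fold in the KO-labelled library and 5 were lower, against the 7.59% and 11.2% of all genes given above, and their median log2 ratio was 0.03. The higher ones were the small heat shock genes *Hspb7* (80.1 and 198 CPM, log2 ratio 1.30), *Hspb6* (0.72) and *Hspb1* (0.71), the formin gene *Fhod3* (218 and 511 CPM, 1.23), whose product assembles actin, and *Sorbs2*, a Z-disc adaptor (351 and 775 CPM, 1.14). The lower ones were *Pdlim7* (107 and 37.9 CPM, -1.49), the myosin kinase gene *Mylk4* (4293 and 1793 CPM, -1.26), *Fhl3* (166 and 81.2 CPM, -1.03), the myosin chaperone gene *Unc45b* (150 and 83.0 CPM, -0.86) and the ubiquitin ligase gene *Fbxo32* (2526 and 1638 CPM, -0.63). *Trim63*, another ubiquitin ligase of the sarcomere, was at 2993 and 3035 CPM (0.02).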

How the data were processed

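The deposited values are raw UMI counts, by gene and barcode, which the authors had not normalized. Per the submitters' processing notes they used Cell Ranger 7.0.0, Seurat 5.0.3 and the mm10 build. Whether intronic reads were counted is not given in the sources used here, and the labels name a 10x Multiome kit where the methods name a 3′ gene expression kit. Nuclei were kept with 200 to 5000 genes and at most 5% mitochondrial UMIs. The highest doublet scores of Scrublet (Scanpy 1.11.5) were removed at 0.8% per 1000 barcodes, 115 and 134 nuclei, since its own threshold marked 8 and 4. The libraries were joined by RPCA in Seurat 5.3.0 (R 4.3.3; 2000 variable genes, 30 components, resolution 0.5), leaving out the 51 genes and the myosin heavy chains. Clusters were named from markers with a rule set after the clusters were seen, and those with at least 15000 CPM of the 10 myonuclear markers were called myonuclei. UMIs were summed per library and class and scaled to CPM. Ratios of fewer than 100 UMIs in all were not counted. Intervals are exact Poisson, Clopper-Pearson or conditional binomial at 95%, in SciPy 1.17.1. Those of the ratios were run on simulated Poisson counts, the model they assume, which does not check the spread among nuclei or mice. Named in the text were the 9 fast and 9 slow isoforms and the 6 highest and 6 lowest ratios between the libraries and between the *Myh4* and *Myh2* classes, with others by group, and a gene named beside these was chosen after its value was seen. The genes, lists and rules were chosen with earlier results of these data known. The 13 planned and 4 added alternatives are given in the closing section, with TMM from edgeR 4.0.16. Coordinates are from GENCODE M21 (GRCm38).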

Additional observations from a re-analysis of the deposited data

Results flagged for a closer look

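*Lmod3*, a leiomodin needed for thin filament length, moved in opposite directions in 2 classes. It was at 19.6 CPM in *Myh4* nuclei of the WT-labelled library and 49.7 CPM in those of the KO-labelled library, a log2 ratio of 1.34, and at 70.0 and 40.7 CPM in *Myh2* nuclei, a log2 ratio of -0.78. It had 49 and 86 UMIs in *Myh4* nuclei and 62 and 68 UMIs in *Myh2* nuclei. Under the stricter classes the ratios were 1.497 (0.90 to 2.11) and -0.64 (-1.24 to -0.03), the latter on 98 UMIs in all. With 1 library per genotype the difference between the classes was not tested.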

How the results depend on the processing

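Of 90 counts and medians recomputed under the alternatives, 77 stayed within 1.5 times the reported count or within the counting interval of the median. The number of genes lower in the KO-labelled library was 1 in place of 2 without doublet removal, after thinning to 1000 UMIs, under TMM and median-of-ratios scaling, with *Meg3*, *Rian* and *Mirg* left out of the scaling, with the classes weighted equally, at a minimum of 500 UMIs and, as an alternative chosen after seeing the data, without the MTJ-like nuclei. The median log2 ratio of the genes was 0.43 under TMM and 0.44 under median-of-ratios scaling, in place of 0.32. The number higher in *Myh2* than in *Myh4* nuclei was 7 in place of 12 both after thinning and at a minimum of 500 UMIs, and the number with the same direction in 3 classes was 13 in place of 20 at 500 UMIs; fewer genes pass in these settings. Of 1046 values of single genes, over the 45 library ratios and the 38 class ratios, 833 stayed within their interval, 211 moved past it without turning a called ratio, and 2 called ratios turned. Those 2 were *Tpm3* without the *Myh7*-class nuclei (-0.015) and *Tnnc2* with the level outside myonuclei subtracted (-0.054), both alternatives chosen after seeing the data, as was that without cluster 5. In all, 30 values of 14 ratios changed sign, most of them near 0, and 15 values of 5 called ratios (*Tnnc2*, *Tmod1*, *Tpm3*, *Myom3* and *Myoz3*) fell within 1.5-fold. The number higher in the KO-labelled library ranged from 11 to 19. No paired analysis was possible because each genotype had 1 library and the result comes from no test. Depth limits several of the slow isoforms, with 2 to 15 UMIs each for *Tnnt1*, *Tnni1*, *Tnnc1*, *Myl2* and *Myl3* in myonuclei of the WT-labelled library.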
